A study of Mus musculus with 6 samples.

Results

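The genes described here belong to ISG15 conjugation and to the interferon response in mouse blastocysts with lowered Eif4a3. They are Ube2l6, Isg15, Usp18, Stat2, Irf9, Irf1, Irf7, Ifitm1 and Ifitm3. These 9 genes, of 55378 in the count table, were picked around Ube2l6 from its strong fall in these same libraries, so its difference is given as a description without a test. Zygotes were microinjected with siRNA-NC, the negative control (NC), or with siRNA-Eif4a3 (Eif4a3-KD), and embryos were collected as blastocysts on day 5. Each group has 3 Smart-seq2 libraries of polyA RNA, and 5 embryos were pooled for each. The labels give no strain, both groups were injected, and a pool mixes the lineages of whole embryos. The labels do not say whether pools came from separate parents, so each p-value measures only the spread between these samples, which may be technical.

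ISG15 is a small protein related to ubiquitin that is attached to other proteins in interferon-treated cells. The E1 enzyme UBA7 activates it, the E2 enzyme UBE2L6 carries it, ligases such as HERC6 in the mouse transfer it, and the protease USP18 removes it. Type I interferon acts through the receptor IFNAR and the kinases JAK1 and TYK2 on a complex that holds STAT2 and IRF9, binds the interferon-stimulated response element and turns on these same genes. Early embryonic cells are known for a weak response to interferon, and for expressing some IFITM genes without it.

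Sums of the counts per library ranged from 15607227 to 18697754, and a floor of 3 counts corresponded to 0.141 to 0.199 CPM (counts scaled to library size, per 1e6) in a library. The targeted gene measured 301.9, 255.2 and 202.0 CPM in NC replicates 1 to 3 and 16.03, 36.2 and 56.2 CPM in Eif4a3-KD replicates 1 to 3, so every knockdown library was below every NC library. Correlations of log2 CPM were 0.938 to 0.965 within NC, 0.921 to 0.941 within Eif4a3-KD and 0.818 to 0.883 between the groups. Genes with enough counts were tested with edgeR's quasi-likelihood test, with p-values adjusted over 15619 genes and called under 0.05. Leukocyte markers summed to 3.22 to 11.2 CPM in NC and 0.890 to 14.1 CPM in Eif4a3-KD, with 0 of 6 at 0 throughout, and 5 of 6 cumulus cell markers were at 0 in all libraries. Fibroblast markers summed to 1.54 to 10.8 and 0.963 to 10.5 CPM, and 0 of 4 were at 0 throughout.

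Among the members, Ube2l6 RNA stood at 12.2 to 33.0 CPM in NC and at 0.281 to 1.75 CPM in Eif4a3-KD, while the other members were at or under 6.56 CPM in every library of both groups. Of the 9 members 5 had enough counts to be tested, and Isg15, Usp18, Irf7 and Ifitm1 had not. Besides Ube2l6, 0 of the 4 tested members passed in edgeR, 0 had an unadjusted p under 0.05 and 0 passed in DESeq2. Across all genes tested 7.52% were called higher and 5.56% lower. In 8 of the 9 members the groups overlapped, and Ube2l6 had every knockdown library below every NC library, as 16.4% of all tested genes did, while 20.1% had every knockdown library above.

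**Figure D1:**
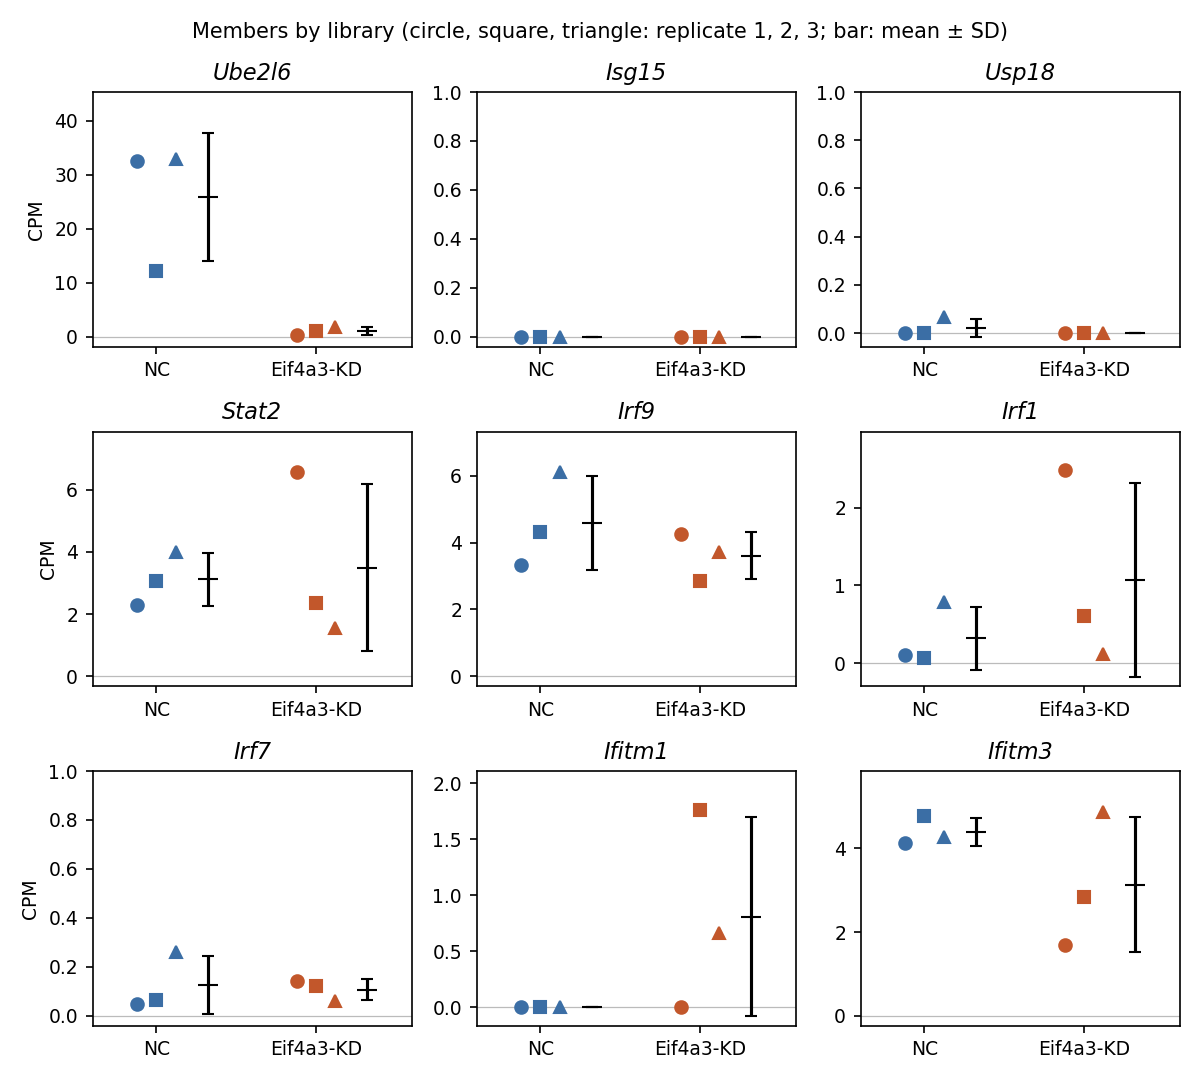
Levels of the 9 members in CPM (vertical axis, with its own range for each gene) in the 3 NC and 3 Eif4a3-KD libraries, with points for libraries and a bar for the mean ± SD. Ube2l6 is the member whose groups do not overlap, Isg15 is at 0 in all 6 libraries, and Ifitm1 has counts in Eif4a3-KD replicates 2 and 3 alone.

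Ube2l6, the E2 enzyme of ISG15, lies on chromosome 2 (84798828 to 84810335, plus strand, GRCm38), and its 5 exon blocks span 1996 bases with no exon of another gene on them. It measured 32.6, 12.2 and 33.0 CPM in NC and 0.281, 1.09 and 1.75 CPM in Eif4a3-KD. NC replicate 2 was the lowest control, and it was still above every knockdown library. The means were 25.9 ± 11.9 and 1.04 ± 0.733 CPM (SD, n = 3), which is 24.96-fold lower in Eif4a3-KD (log2 fold change −4.66, standard error 0.67). Since Ube2l6 was picked for this fall, these values are only a description. In bulk samples such as these, fewer cells that express a gene and less of its RNA per cell cannot be told apart. Trophectoderm markers (Cdx2, Eomes, Krt8, Krt18) summed to 1814 to 4947 CPM in NC and 431.6 to 1944 CPM in Eif4a3-KD. Markers of the epiblast and inner cell mass (Pou5f1, Nanog, Sox2) summed to 221.3 to 273.4 and 115.6 to 157.3 CPM, and the primitive endoderm markers Gata6 and Sox17 to 61.8 to 69.6 and 52.4 to 68.2 CPM, with none of the 9 at 0 throughout. The last sum is mostly Gata6. Sox17 had 79, 23 and 9 counts in NC and 6, 1 and 1 in Eif4a3-KD and was not tested. In edgeR, Eomes (−2.765, adjusted p 0.0063), Krt18 (−1.97, adjusted p 0.0332) and Sox2 (−2.405, adjusted p 0.0449) were called lower. Sox2 entered the test only through NC. Cdx2, Krt8, Pou5f1, Nanog and Gata6 did not pass in edgeR. The part of these markers' lineages in the lower Ube2l6 level was not tested.

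Mean CPM was lower in Eif4a3-KD in each of the 5 exon blocks of Ube2l6, though block 3 had only 2, 1 and 1 counts in NC. The last block, the most counted, had 20.1, 7.50 and 21.4 CPM in NC and 0.234, 0.909 and 0.843 CPM in Eif4a3-KD. It held 62.8% of the 1342 NC counts and 64.2% of the 53 knockdown counts. The first block had 39, 9 and 19 counts in NC and 0 in every knockdown library, and its usage relative to the other blocks did not pass (adjusted p 1). The usage estimate for that first block was −2.87 on the log2 scale. In edgeR's test of exon block usage 0 of 6 tested blocks of Ube2l6 and Ifitm3 passed, and 0 had an unadjusted p under 0.05, against 0.168% of all 67890 blocks that passed. With 53 knockdown counts in Ube2l6, the test could miss an uneven fall along the gene.

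**Figure D2:**
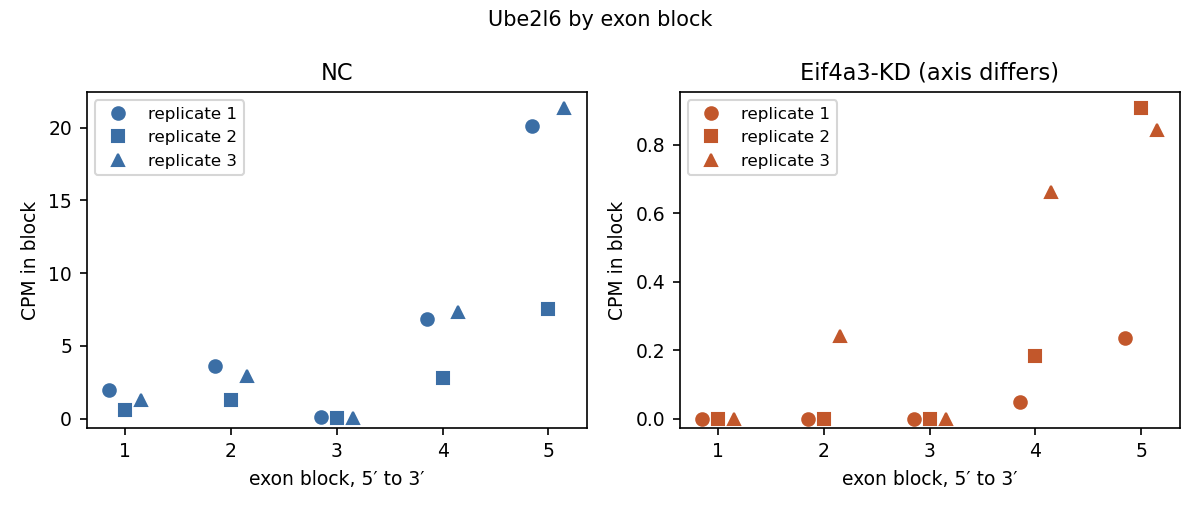
Ube2l6 by exon block from the 5′ to the 3′ end (horizontal axis) in CPM within the block (vertical axis, which differs between the panels), with a point per library. In both groups the last of the 5 blocks is the most counted, at 7.50 to 21.4 CPM in NC and 0.234 to 0.909 CPM in Eif4a3-KD.

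The sequence just before the start differs between Ube2l6, Isg15 and Irf1 in the interferon response element. The 100 bases before the RefSeq start of Ube2l6 (chr2:84798728-84798827, plus strand), Isg15 (chr4:156200819-156200918, minus strand) and Irf1 (chr11:53769914-53770013, plus strand) are given from RefSeq on GRCm38.p6. They are written 5′ to 3′ along the gene. Capitals mark the core of the response element (GAAANNGAAA) in Isg15 and the gamma-activated site (TTCNNNGAA), known from genes that interferon gamma induces, in Irf1.
Ube2l6: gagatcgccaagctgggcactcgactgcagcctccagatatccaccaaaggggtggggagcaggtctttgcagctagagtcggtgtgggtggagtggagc
Isg15: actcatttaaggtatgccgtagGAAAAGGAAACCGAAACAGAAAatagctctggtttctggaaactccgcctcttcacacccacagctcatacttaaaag
Irf1: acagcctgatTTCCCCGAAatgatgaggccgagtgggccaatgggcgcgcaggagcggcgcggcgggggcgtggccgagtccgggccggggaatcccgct

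Both motifs were searched on both strands in windows of 300 bases around gene starts, 250 before and 50 after. A window was found for 8 of the 9 members, all but Usp18. The response element core was in the windows of Isg15, Stat2 and Ifitm3, as in 3.44% of all 32851 windows. In Isg15 it occurred 3 times in overlap, with first bases 78, 72 and 66 bases before the start, and in Stat2 once, on the other strand, from 222 bases before the start. In Ifitm3 it lay after the start, with first bases 2 and 19 bases past it. The gamma-activated site was in the windows of Irf1, 90 bases before the start, and of Ifitm3, as in 8.30% of all windows. In Ifitm3 it begins 13 bases after the start and overlaps a response element core. Neither motif is in the window of Ube2l6, which says only that these letters are not there.

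Isg15, the modifier that UBE2L6 conjugates, is on chromosome 4 (156199455 to 156200796, minus strand), and it had 0 counts in all 6 libraries. With 0 counts, up to 3 counts in a library are allowed, so Isg15 RNA was not detectable in either group below the floor of 0.141 to 0.199 CPM. Usp18, the protease that removes ISG15, on chromosome 6 (121245906 to 121270917, plus strand), had 1 count, in NC replicate 3, and 0 in the other libraries. Isg15 RNA was thus not detected in NC either, where Ube2l6 RNA stood at 12.2 to 33.0 CPM.

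Beside Ube2l6, the list drawn up for ISG15 conjugation held 7 genes, not all with a known part in it. Of these 3 were tested (Herc3, Trim25 and Arih1), and 0 of the 3 passed in edgeR or in DESeq2. Trim25, a ligase for ISG15, measured 33.1, 27.3 and 18.5 CPM in NC and 19.1, 10.7 and 7.34 CPM in Eif4a3-KD, with 1 knockdown library among the controls (−1.09, interval −2.01 to −0.17, edgeR adjusted p 0.109). It was the gene of the 3 with an unadjusted p under 0.05, and it passed without Eif4a3-KD replicate 1 (−1.58, adjusted p 0.0313) and with the replicate number as a block (−1.16, adjusted p 0.0380). Arih1, another ligase linked to ISG15, had −0.01 (interval −0.86 to 0.85, adjusted p 0.994), a value whose sign changes with upper-quartile scaling (0.09). Uba7, the E1 enzyme, had 0, 1 and 4 counts in NC and 19, 10 and 2 in Eif4a3-KD, too few to test, and Herc6, the main mouse ligase, had 0 counts in NC and 0, 0 and 15 in Eif4a3-KD. All of the Herc6 counts were thus in knockdown replicate 3.

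Of the E2 enzymes related to Ube2l6, by sequence or by the kind of modifier they carry, Ufc1 rose, Ube2n fell and the other 9 did not pass in edgeR. Ube2l3, its closest relative, which carries ubiquitin, measured 375.4, 625.6 and 700.6 CPM in NC and 343.2, 712.3 and 663.2 CPM in Eif4a3-KD. Its groups overlapped (0.01, interval −0.80 to 0.83, adjusted p 0.984), its sign changed under several alternatives, −0.02 with no filter among them, and an opposite-strand gene, Ydjc, covers 28.6% of its exons. All 11 genes of this list were tested, with 1 higher, 1 lower and a median of 0.29. Ufc1, the E2 of the modifier UFM1, rose from 63.6, 93.4 and 76.97 CPM to 157.7, 207.9 and 226.6 CPM (1.34, standard error 0.29, adjusted p 0.0154). That call was lost without NC replicate 1 (0.0596), 2 (0.0514) or 3 (0.0606). Ube2n, which builds lysine-linked ubiquitin chains in innate signalling, fell from 264.2, 284.6 and 360.5 CPM to 123.6, 146.2 and 154.6 CPM (−1.10, adjusted p 0.0273). Its call was lost without NC replicate 2 (0.0694) or 3 (0.0900) and without Eif4a3-KD replicate 2 (0.0755) or 3 (0.0570). Ube2f, an E2 of the modifier NEDD8, measured 167.5, 172.4 and 178.0 CPM in NC and 250.9, 348.8 and 266.9 CPM in Eif4a3-KD, with every knockdown library above every control. It did not pass in edgeR (0.74, interval 0.15 to 1.33, adjusted p 0.0921) and passed in DESeq2 (adjusted p 0.0415).

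The STAT and IRF members had low RNA levels that did not separate the groups. Stat2, a transcription factor of the type I response, lies on chromosome 10 (128270559 to 128292849, plus strand) in 19 exon blocks. It measured 2.29, 3.06 and 4.003 CPM in NC and 6.56, 2.36 and 1.57 CPM in Eif4a3-KD, where replicate 1 was above all controls and replicate 3 below them. Its log2 fold change was 0.17 (standard error 0.60, interval −1.151 to 1.499, adjusted p 0.875), and it was −0.70 without Eif4a3-KD replicate 1, −0.01 without NC replicate 1 and −0.06 with the replicate number as a block.

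The counts of Stat2 were placed differently along the gene, a pattern noticed after the values were seen and not tested, since too few blocks passed the filter. Blocks 2 to 8 (128276486 to 128278817) held 4, 12 and 18 counts in NC and 0 in each knockdown library. Blocks 9 to 19 (128281082 to 128292849) held 41, 31 and 41 counts in NC and 140, 38 and 24 in Eif4a3-KD. The first block had 1, 3 and 2 counts in NC and 0, 1 and 2 in Eif4a3-KD. Pairs over a junction enter several blocks, and these counts are therefore not all separate molecules.

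Irf9, the DNA-binding subunit that acts with STAT2, lies on chromosome 14 (55603571 to 55610030, plus strand). It measured 3.33, 4.32 and 6.10 CPM in NC and 4.26, 2.85 and 3.73 CPM in Eif4a3-KD, with overlapping groups (−0.34, standard error 0.45, interval −1.34 to 0.66, adjusted p 0.655). Exons of Rnf31 on the same strand cover 2.28% of it.

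Irf1, a transcription factor induced by interferon gamma, lies on chromosome 11 (53770014 to 53778374, plus strand). It had 2, 1 and 12 counts in NC (0.0995, 0.0664 and 0.788 CPM) and 53, 10 and 2 counts in Eif4a3-KD (2.48, 0.606 and 0.120 CPM). Eif4a3-KD replicate 1 stood above the rest, and the other knockdown libraries lay among the controls (1.77, standard error 1.147, interval −0.77 to 4.32, adjusted p 0.329). Without that library the log2 fold change was 0.17. Of the 15 NC counts 12 were in block 11, and the opposite-strand gene Gm17334 covers 20.02% of Irf1, so its low level is uncertain. Irf7, the factor that amplifies type I interferon, on chromosome 7 (141262706 to 141266481, minus strand), had 1, 1 and 4 counts in NC and 3, 2 and 1 in Eif4a3-KD and was not tested.

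In the wider Stat and Irf families, Stat3, which is not a member, was called lower. Of the 6 Stat genes listed 5 were tested, with 0 higher, 1 lower and a median of 0.13. Stat3, which transmits LIF and other cytokine signals and is known for its role in the inner cell mass, fell from 125.8, 78.6 and 45.8 CPM to 33.04, 19.1 and 10.2 CPM (−2.003, standard error 0.49, adjusted p 0.0252). The call was lost without NC replicate 1 (0.0900) or 2 (0.0688) and without Eif4a3-KD replicate 2 (0.0884) or 3 (0.0649). Of 9 Irf genes 6 were tested and 0 passed in edgeR or DESeq2, with a median of −0.29 and 1 gene, Irf8, at an unadjusted p under 0.05. Irf3, which responds to nucleic acid sensors, had −0.99 (interval −2.01 to 0.04, adjusted p 0.182), and Irf8, a factor of blood cells, had 0, 6 and 2 counts in NC and 20, 30 and 16 in Eif4a3-KD (2.82, adjusted p 0.0845), so that it entered the test only through Eif4a3-KD.

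The IFITM family, some of whose membrane proteins block the entry of viruses, had 1 gene that rose, Ifitm10, and 1 that fell, Ifitm2. Of the members, Ifitm3 did not pass and Ifitm1 was not tested. Ifitm3, on chromosome 7 (141009586 to 141010770, minus strand), measured 4.13, 4.78 and 4.27 CPM in NC and 1.69, 2.85 and 4.88 CPM in Eif4a3-KD. Knockdown replicate 3 was above all controls and the other knockdown libraries below them (−0.49, standard error 0.50, interval −1.60 to 0.62, adjusted p 0.553). Ifitm1, on chromosome 7 (140967221 to 140969825, plus strand), had 0 counts in every NC library and 0, 29 and 11 counts in Eif4a3-KD (0, 1.76 and 0.662 CPM). Set against the floor of 3 counts pooled over NC, the knockdown level was 12.3-fold higher, but knockdown replicate 1 was at 0 like the controls. A pair over a junction counts in several blocks, so this ratio is not a strict lower bound. The ratio was 4.87-fold without knockdown replicate 2 and 20.3-fold without replicate 1. All 3 exon blocks of Ifitm1 held counts. Too few libraries had counts for the filter. Without a filter edgeR gave an adjusted p of 0.0021, but with 0 counts in every NC library Ifitm1 could only come out higher.

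Ifitm2 was the abundant gene of the family. It measured 57.7, 147.9 and 247.5 CPM in NC and 30.4, 48.4 and 59.3 CPM in Eif4a3-KD, and it fell (−1.71, standard error 0.48, adjusted p 0.0441) although NC replicate 1 lay within the knockdown range. That call was lost with upper-quartile scaling (0.0551), with all exon lines summed (0.0580) and without any 1 library other than NC replicate 1 (0.0714 to 0.147: NC replicates 2 and 3, Eif4a3-KD replicates 1, 2 and 3). Gm45717 covers 40.9% of its exons, and pairs that align equally well to near-identical copies are missing, so the split between Ifitm2 and Ifitm3 is uncertain. Ifitm10 rose from 2.79, 1.79 and 1.97 CPM to 7.59, 5.88 and 5.48 CPM (1.53, adjusted p 0.0477), a call lost when any 1 of the 6 libraries was left out (0.0749 to 0.165), with no filter (0.0625) and with all exon lines summed (0.0649). Of the 7 Ifitm genes 3 were tested, with 1 higher, 1 lower and a median of −0.49.

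Per kilobase of merged exons, the members' order in NC was led by Ube2l6 at 12.99 ± 5.95 CPM per kb and Ifitm3 at 6.48 ± 0.508. Their libraries overlapped, at 6.12 to 16.5 and 6.09 to 7.05 CPM per kb. Irf9 followed at 0.851 ± 0.261 and Stat2 at 0.526 ± 0.145, which overlapped. Irf1 at 0.0799 ± 0.102, Irf7 at 0.0334 ± 0.0313 and Usp18 at 0.00784 ± 0.0136 came next, with ranges that overlapped from 1 to the next, and Isg15 and Ifitm1 were at 0. In Eif4a3-KD Ifitm3 led at 4.63 ± 2.38 CPM per kb, above every other member in each library. Ifitm1 at 0.737 ± 0.811, Irf9 at 0.671 ± 0.133, Stat2 at 0.590 ± 0.453, Ube2l6 at 0.521 ± 0.368 and Irf1 at 0.269 ± 0.314 did not differ from their neighbours beyond their spread.

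Among the 12 interferon genes listed, RNA was found for Ifnk and Ifng alone. The list does not hold every mouse interferon gene. Of the 12 genes 10 were at 0 in every library, among them Ifnb1, the first type I interferon made on infection, and 0 could be tested. Ifnk, a skin-type interferon, had 9, 12 and 3 counts in NC and 9, 22 and 8 in Eif4a3-KD. Ifng, which encodes interferon gamma, on chromosome 10 (118441046 to 118445892, plus strand), had 0 counts in every NC library and 165, 43 and 10 in Eif4a3-KD (7.73, 2.61 and 0.602 CPM). Set against that same pooled floor it was 67.3-fold higher, and it did not enter the test. As for Ifitm1, this ratio is not a strict lower bound. Of the 218 knockdown counts 165 were in replicate 1, and without that library the ratio was 26.9-fold.

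Along Ifng the first of 3 blocks was at 0 in every library, and all 218 knockdown counts were in the other blocks, from position 118442460 on. Gm49751 on the same strand covers 25.95% of Ifng, so part of the counts cannot be assigned to Ifng alone. Ddx60, an antiviral helicase gene on chromosome 8 (61928087 to 62038244, plus strand), had 0 counts in NC and 36, 112 and 11 in Eif4a3-KD. Set against the pooled floor it was 49.1-fold higher, and 20.8-fold without knockdown replicate 2. Pairs over a junction enter several of its blocks, so these ratios are not strict lower bounds. Ddx60 entered the test only through Eif4a3-KD and could then only be higher (edgeR, adjusted p 0.0128). Its first 14 of 40 blocks were at 0 in every library, and counts began at position 61962334. Nlrc5, the activator of MHC class I genes, had 1, 5 and 0 counts in NC and 82, 21 and 4 in Eif4a3-KD and was not tested. Its first 26 of 53 blocks were at 0. These 3 genes were chosen after their values were seen, and in each the knockdown counts left out the 5′ end of the annotated gene.

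**Figure D3:**
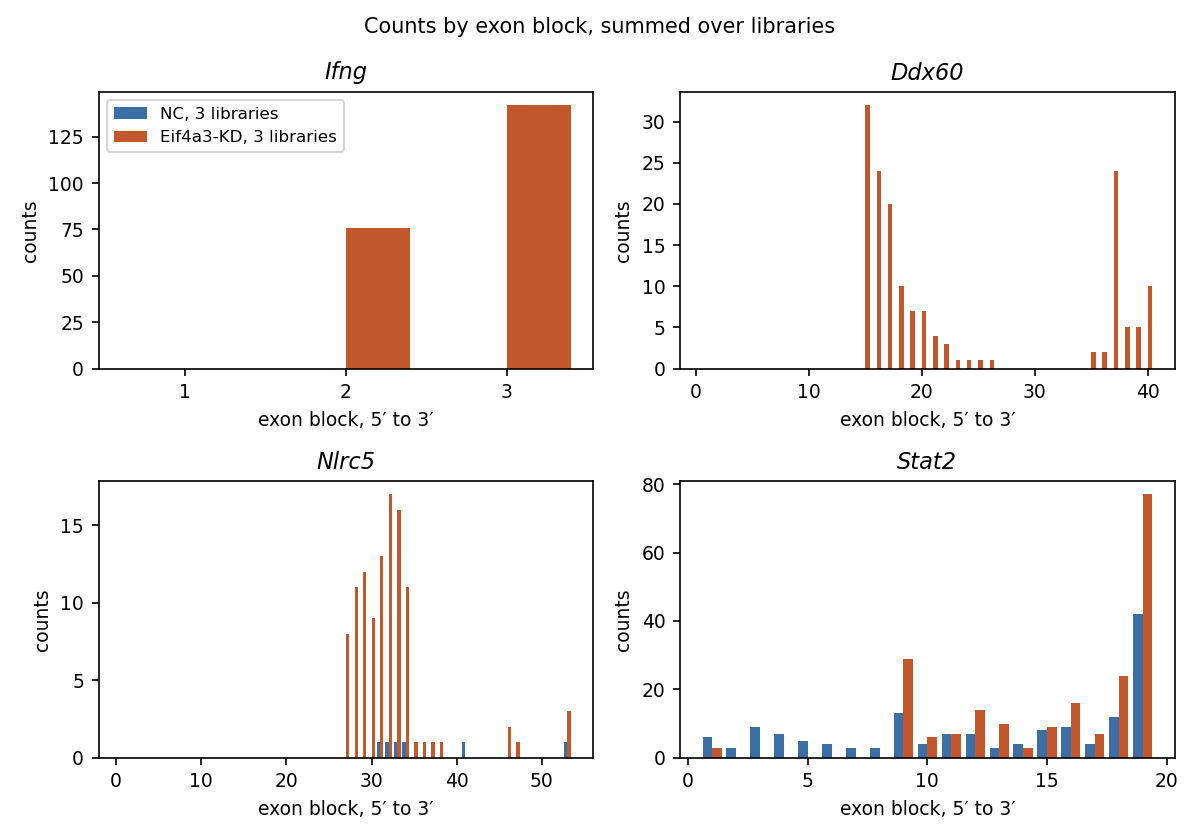
Counts per exon block from the 5′ to the 3′ end (horizontal axis), summed over the 3 libraries of a group (vertical axis), for Ifng, Ddx60, Nlrc5 and Stat2. In Ifng, Ddx60 and Nlrc5 the first 1, 14 and 26 blocks hold no counts, and in Stat2 blocks 2 to 8 hold 34 NC counts and 0 knockdown counts.

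The library with the most Ifng counts, Eif4a3-KD replicate 1, also had the highest Irf1, Stat2 and Nlrc5 levels of all 6 libraries, and of Tap1, the MHC class I peptide transporter (18.1 CPM, against 2.95 to 8.77 in the others). It did not have the highest Ddx60, which was in replicate 2, and it had 0 counts of Ifitm1. In the MHC class I list every gene other than Nlrc5 and Tap1 had its highest level in another library. B2m, for example, measured 118.5 CPM in Eif4a3-KD replicate 1 and 252.9 CPM in replicate 2. Psme1 measured 54.4 CPM in Eif4a3-KD replicate 1 and 88.6 CPM in NC replicate 2. Eif4a3-KD replicate 1 was singled out after its values were seen. The GTPases that interferon gamma strongly induces in mouse cells had 0 of 10 genes tested. Their summed level was 0.996 to 4.38 CPM in NC and 0.722 to 1.33 CPM in Eif4a3-KD. Gbp2, 1 of these, had 57, 6 and 8 counts in NC and 0, 1 and 2 in Eif4a3-KD.

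Of 10 receptor and kinase genes for interferon 9 had enough counts to be tested. The remaining gene was Ifnlr1, a receptor chain for lambda interferons, with 11, 2 and 8 counts in NC and 1 in each Eif4a3-KD library. Of the 9 tested, 0 passed in edgeR, 2 had an unadjusted p under 0.05 and 1 passed in DESeq2, with a median of −0.40. Ifnar1, the type I receptor chain, measured 9.65, 7.90 and 9.65 CPM in NC and 12.98, 7.27 and 5.42 CPM in Eif4a3-KD (−0.08, adjusted p 0.917), and its sign changed without Eif4a3-KD replicate 3 (0.15). Ifngr1, the ligand-binding chain for interferon gamma, measured 6.17, 9.36 and 11.9 CPM in NC and 30.9, 22.2 and 10.7 CPM in Eif4a3-KD (1.22, interval 0.23 to 2.21, edgeR adjusted p 0.0979), and it was the gene that passed in DESeq2 (0.0476). Without a filter it passed in edgeR too (0.0473). Its partner chain Ifngr2 measured 18.05, 9.70 and 12.3 CPM in NC and 9.93, 3.51 and 6.20 CPM in Eif4a3-KD (−1.026, interval −2.04 to −0.02, adjusted p 0.160), a difference of the opposite sign. Jak1, the kinase shared by both receptors, had −0.61 (interval −1.26 to 0.05, adjusted p 0.196).

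The antiviral genes that interferon switches on were mostly too low to test. Of 31 such genes 12 were tested, with 1 higher and 1 lower in edgeR, 1 higher and 2 lower in DESeq2, and a median of −0.66. The higher gene was Ddx60. Oas1a, which makes the messenger that activates RNase L, fell from 9.50, 8.50 and 14.2 CPM to 3.84, 4.06 and 3.31 CPM (−1.52, standard error 0.40, adjusted p 0.0323). It lost its call without NC replicate 1 (0.0625), 2 (0.0659) or 3 (0.110), without Eif4a3-KD replicate 2 (0.0733) or 3 (0.0822), and with all exon lines summed (0.0532). Oas1g, a related gene, measured 5.02, 7.64 and 10.6 CPM in NC and 2.81, 3.76 and 2.77 CPM in Eif4a3-KD, with every knockdown library below every control. It did not pass in edgeR (−1.32, adjusted p 0.0777) and passed in DESeq2 (adjusted p 0.0245). These genes have near-identical copies in the mouse, so their levels are uncertain. The strongly interferon-induced genes Rsad2 and Ifit3b were at 0 in every library, and Ifit1, Ifit2 and Ifit3 had 0 counts in NC and 1 each in Eif4a3-KD.

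Of 16 nucleic acid sensors and adaptors 10 were tested, with 0 higher, 1 lower and a median of 0.19. Samhd1, an enzyme that depletes nucleotides, fell from 26.6, 29.2 and 21.4 CPM to 14.1, 11.6 and 8.25 CPM (−1.19, adjusted p 0.0447), a call lost without any 1 library other than Eif4a3-KD replicate 1 (0.0673 to 0.140). It was also lost with upper-quartile scaling (0.0506), with all exon lines summed (0.0609) and with the most counted block (0.431). Of 13 genes of MHC class I presentation 11 were tested, with 1 higher, 0 lower and a median of 0.27. The higher gene was Erap1, the peptidase that trims MHC peptides, with 0, 3 and 1 counts in NC and 36, 48 and 13 in Eif4a3-KD. It entered the test only through Eif4a3-KD and could then only be higher (4.32, standard error 1.02, adjusted p 0.0219). Its call was lost without NC replicate 1 (0.0651) or 3 (0.0861) and without Eif4a3-KD replicate 2 (0.0823), and exons of Cast on the other strand cover 11.5% of it.

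Of 14 genes that restrain interferon signalling or keep endogenous retroviruses silent 13 were tested, with 0 higher, 4 lower and a median of −0.45. The 4 are 30.8% of those tested, beside 5.56% lower among all genes. The list joins both kinds of gene and was chosen with earlier results of these data known, so this share is only a description. Trim28, the corepressor that silences retroviral elements, fell from 158.7, 175.8 and 116.0 CPM to 40.02, 53.5 and 54.7 CPM (−1.60, standard error 0.29, adjusted p 0.0084), and it passed whichever library was left out (0.0152 to 0.0406). Setdb1, the histone methyltransferase that works with TRIM28, fell by 1.28 on the log2 scale (adjusted p 0.0308), and its call was lost without any 1 library other than Eif4a3-KD replicate 1 (0.0543 to 0.1), with all exon lines summed (0.0655) and with the most counted block (0.0515). Pias3, an inhibitor of STAT3, had −2.002 (adjusted p 0.0430) and Cish, a feedback inhibitor of cytokine receptors, −1.57 (adjusted p 0.0406). Both calls were lost without NC replicates 1, 2 or 3 or Eif4a3-KD replicates 2 or 3 (0.0700 to 0.151 for Pias3 and 0.0572 to 0.151 for Cish).

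Over all the pathway lists without the members, 138 genes, 79 were tested. Of these 5.06% were higher and 11.4% lower (4 and 9 genes), with a median log2 fold change of −0.08, beside 7.52% higher and 5.56% lower among all genes tested, with a median of 0.03. Of the 4 higher genes, Ddx60 and Erap1 entered the test only through Eif4a3-KD. The lists were chosen with earlier results of these data known, so these shares are only a description.

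**Figure D4:**
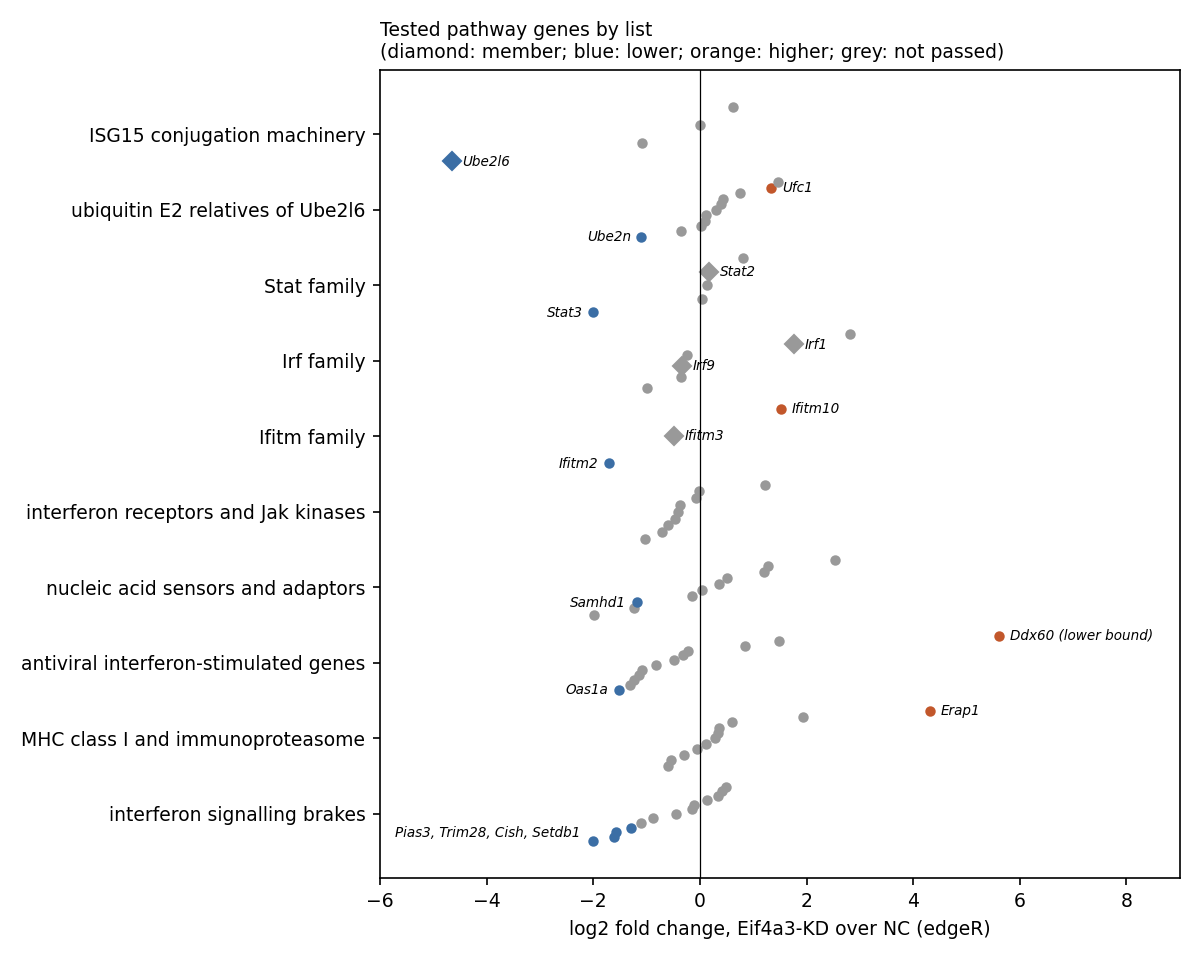
Log2 fold change of Eif4a3-KD over NC (horizontal axis) for each tested gene of the pathway lists (rows), with members as diamonds, genes called lower in blue, higher in orange and the rest in grey. Ube2l6 stands at −4.66 and the other tested members between −0.49 and 1.77. Ube2l6 was picked for its fall, so its colour is only a description. Ddx60 is drawn at its 49.1-fold ratio to the floor of 3 counts pooled over NC. That ratio, marked as a lower bound, is not a strict one, since a pair over a junction counts in several blocks.

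The genes whose levels followed Ube2l6 most closely were, by Pearson's r of log2(CPM + 0.5) over the 6 libraries among 6810 named genes with a mean of at least 10 CPM, Slc38a1 (0.991), Tdgf1 (0.990), Slc6a14 (0.989), Carnmt1 (0.989) and Sall4 (0.988). These values are a description, since the points share their libraries and the difference between groups makes up much of each r. Tdgf1, the coreceptor of NODAL, measured 202.1, 115.1 and 227.6 CPM in NC and 2.91, 6.06 and 6.14 CPM in Eif4a3-KD. As in Ube2l6, its lowest control was NC replicate 2 and its lowest knockdown library replicate 1. Slc38a1, a glutamine transporter, measured 130.9, 101.7 and 144.2 CPM in NC and 37.6, 55.7 and 50.9 CPM in Eif4a3-KD. Slc6a14, another amino acid transporter, measured 29.3, 18.9 and 32.02 CPM and 7.36, 9.15 and 8.67 CPM. Carnmt1, a methyltransferase that acts on carnosine, measured 122.0, 103.1 and 112.7 CPM and 29.6, 38.2 and 42.6 CPM. Sall4, a zinc finger factor of early embryonic cells, measured 96.4, 82.7 and 94.7 CPM and 44.4, 50.9 and 62.1 CPM. In all 5 every knockdown library was below every NC library.

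Of the 3 blood markers 1 fell. Hbb-bs, a beta globin gene, measured 5.57, 9.30 and 1.64 CPM in NC and 0.562, 0.424 and 0.120 CPM in Eif4a3-KD (−3.85, adjusted p 0.0132, and 0.0614 without NC replicate 2). Hbb-bs entered the test only through NC, the group where it was high. Hba-a1, an alpha globin gene, measured 6.52, 24.6 and 4.003 CPM in NC and 1.87, 2.97 and 4.69 CPM in Eif4a3-KD, with overlapping groups (−1.88, adjusted p 0.0924 in edgeR and 0.0279 in DESeq2). Its log2 fold change was −0.79 without NC replicate 2. Alas2, an enzyme of haem synthesis in red cells, had 60, 0 and 3 counts in NC and 5, 5 and 0 in Eif4a3-KD and was not tested. The 3 genes summed to 5.84 to 33.9 CPM in NC and 2.67 to 4.82 CPM in Eif4a3-KD, and 0 of them were at 0 throughout. Their part in the lower Ube2l6 level was not tested.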

How the data were processed

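Per the submitters' processing notes, the authors used FastQC 0.11.9, fastp 0.20.1, STAR 2.7.6a, featureCounts 2.0.1, R 4.1.1 and DESeq2 1.34.0, with GRCm38. The deposited table holds 1 line per annotated exon (GENCODE vM29 on GRCm38 coordinates), per the file headers, with a pair counted in every line it overlaps, strand setting 2 and no option for pairs with several alignments. The values the authors deposited are raw counts. Smart-seq2 does not mark strand, so pairs in the other orientation are missing, and overlapping genes cannot be told apart.

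The planned test assumed counts per gene. The 449500 distinct exons were merged into 291424 blocks within genes, the most counted line was kept per block and blocks were summed per gene, so a pair over a junction counts more than once. The 6 libraries held sums of 15607227 to 18697754 counts. Of 55378 genes 55102 had a symbol.

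Genes passing filterByExpr were fitted in edgeR 4.0.16 (R 4.3.3) with TMM scaling and the group alone, tested by glmQLFTest and adjusted by Benjamini-Hochberg. Intervals are at 95%. CPM uses effective library sizes. Block usage was tested with diffSpliceDGE. DESeq2 1.42.0, other scalings and filters, a replicate block, other gene sums and leaving out each library were alternatives. Floors of 3 counts cover counting error only.

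Members and gene lists were chosen with earlier results of these data known. Genes named are the members, the list genes that passed in edgeR, those that DESeq2 alone passed or whose role is needed beside a member, and the 5 most like Ube2l6. The lists cover ISG15 machinery, E2 relatives, Stat, Irf and Ifitm families, interferons, receptors and kinases, sensors, antiviral genes, MHC class I, signalling brakes, GTPases, and markers of blastocyst lineages, leukocytes, cumulus cells, blood and fibroblasts. A gene of these pathways is not reported here.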

Additional observations from a re-analysis of the deposited data

How the results depend on the processing

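All genes called higher numbered 1174, with 1829 in DESeq2, 2089 with no filter on low counts and 550 to 1224 with 1 library left out. Genes called lower numbered 869, with 1490 in DESeq2, 1518 with no filter and 336 to 1130 with 1 library left out. Beside Ube2l6, 0 members were called in each alternative run except no filter. There 1 (Ifitm1) was higher, and with 0 counts in every NC library it could only be higher. Ube2l6, picked for its fall, ranged from −5.28 to −4.23 over its 14 alternatives. The sign of values near 0 changed: Stat2 (0.17; −0.70 to 0.52 with 1 library left out) had −0.064 with the replicate block, −0.0058 without NC replicate 1 and −0.70 without Eif4a3-KD replicate 1. Arih1 (−0.01; −0.28 to 0.21) had 0.095 with upper-quartile scaling, 0.064 with a filter of 5 CPM, 0.17 without NC replicate 1, 0.21 without Eif4a3-KD replicate 1 and 0.13 with all exon lines summed. Ube2l3 (0.01; −0.24 to 0.24) had −0.019 with no filter, −0.0071 with the replicate block, −0.24 without NC replicate 1, −0.17 and −0.11 without Eif4a3-KD replicates 2 and 3, −0.0011 with all exon lines summed and −0.052 with the most counted block. Ifnar1 (−0.08; −0.55 to 0.15) had 0.023 without Eif4a3-KD replicate 2 and 0.15 without replicate 3. The cause was not tested. Of 491 comparisons over 36 named genes, 403 kept direction and side of the threshold, 62 lost a call and 9 gained one. The labels do not say that equal replicate numbers share a batch, so the numbers were used as a block only in an alternative run. Same-numbered libraries correlated at 0.269, 0.00261 and 0.1 after removing group means. The value of 0.269, for replicate 1, was the highest between any NC and any Eif4a3-KD library. NC replicate 2, in contrast, correlated best with Eif4a3-KD replicate 3 (0.186). Whether equal numbers share a batch was not tested. With the replicate number as a block 1331 genes were higher and 1196 lower, and Trim25 passed (−1.16, adjusted p 0.0380). Isg15, Usp18, Irf7 and Ifitm1 had too few counts to be tested.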
